A study of Mus musculus with 6 samples.

Results

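The genes described here build, modify, fold, export, trim and crosslink collagen. They were chosen by role from a list of 35 symbols, and 33 of these had a row among the 12830 genes of the deposited table. Colgalt2 and Tll1 were not analysed here. The RNA came from primary bone marrow stromal cells (BMSCs), the adherent marrow cells from which osteoblasts and adipocytes can be grown, kept for 2 days in osteogenic induction. The CKO group, 3 libraries, came from mice given as Prx1;Rras2f/f, and the Rras2FF group, also 3 libraries, from mice given as Rras2f/f, all 8 weeks old. Both groups therefore carried the floxed Rras2 allele. Prx1 is a promoter of limb bud mesenchyme that is used to drive Cre recombinase in limb skeletal cells. Cells of the culture outside that lineage need not carry the deletion. The sources used here name neither the recombinase nor the strain. Nor do they say whether replicates were separate animals, so the p-values cover only the spread between libraries, which could be technical.

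A collagen chain is altered before it leaves the cell. In the endoplasmic reticulum (ER) its prolines and lysines are hydroxylated and some hydroxylysines receive sugars. The chains then wind into a triple helix with the help of prolyl isomerases and the collagen chaperone HSP47, encoded by Serpinh1. The folded procollagen is loaded into enlarged transport carriers, its end propeptides are cut off outside the cell, and lysyl oxidases start the crosslinks that join the molecules of a fibril. In osteoblasts this machinery serves type I collagen above all, and loss of CRTAP, P3H1, cyclophilin B, HSP47, FKBP65, BMP1, TMEM38B or OASIS causes osteogenesis imperfecta in humans.

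The counts over the genes of the table summed to between 34612725 and 36403427 in the CKO libraries and between 31934714 and 37561452 in the Rras2FF libraries. Rras2, the gene targeted, had 26.7, 29.0 and 26.8 CPM (read counts relative to the TMM-scaled library total) in CKO replicates 1, 2 and 3, against 49.7, 50.1 and 44.7 CPM in Rras2FF replicates 1, 2 and 3. Its log2 fold change, CKO over Rras2FF, was -0.81 with a standard error (SE) of 0.0683 (edgeR adjusted p = 1.08e-05). A gene was called when its p, adjusted by the Benjamini-Hochberg method across the table, was below 0.05, which 621 genes, or 4.84%, reached. Without CKO replicate 1 the number was 1166, and without any other library it lay between 268 and 379.

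More of the collagen-processing genes were lower than higher in CKO cells. Of the 33 genes, 13 fell, 1 rose and 19 did not pass the test, against 2.74% of all genes called lower and 2.1% called higher. The genes that fell include the chaperone Serpinh1, the prolyl 3-hydroxylase P3h1, the prolyl isomerase Fkbp10 and the transcription factor Creb3l1, and the one that rose was the prolyl 3-hydroxylase P3h2. The median change of the 13 that fell was -16.3%. The fitted log2 fold change was below 0 for 28 of the 33 genes, against 49.8% of all genes. Its median was -0.17 over the 33 genes and 0.00058 over all genes. Every CKO library lay below every Rras2FF library for 20 of the 33 genes, which held for 11.2% of all genes, and above for 1, which held for 11.3%. The authors' deposited table, at an adjusted p below 0.05, called 16 of the 33 lower and 1 higher, against 6.61% of all genes called, 3.85% lower and 2.76% higher. DESeq2, run here, called 6.61% of all genes and the same numbers of the 33. Each called 848 genes, and the log2 fold changes were the same (Bmp1, -0.249236 in each). The deposited values and DESeq2 therefore count as 1 analysis. In bulk RNA, fewer cells that make these transcripts and less transcript per cell cannot be told apart.

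**Figure D1:**
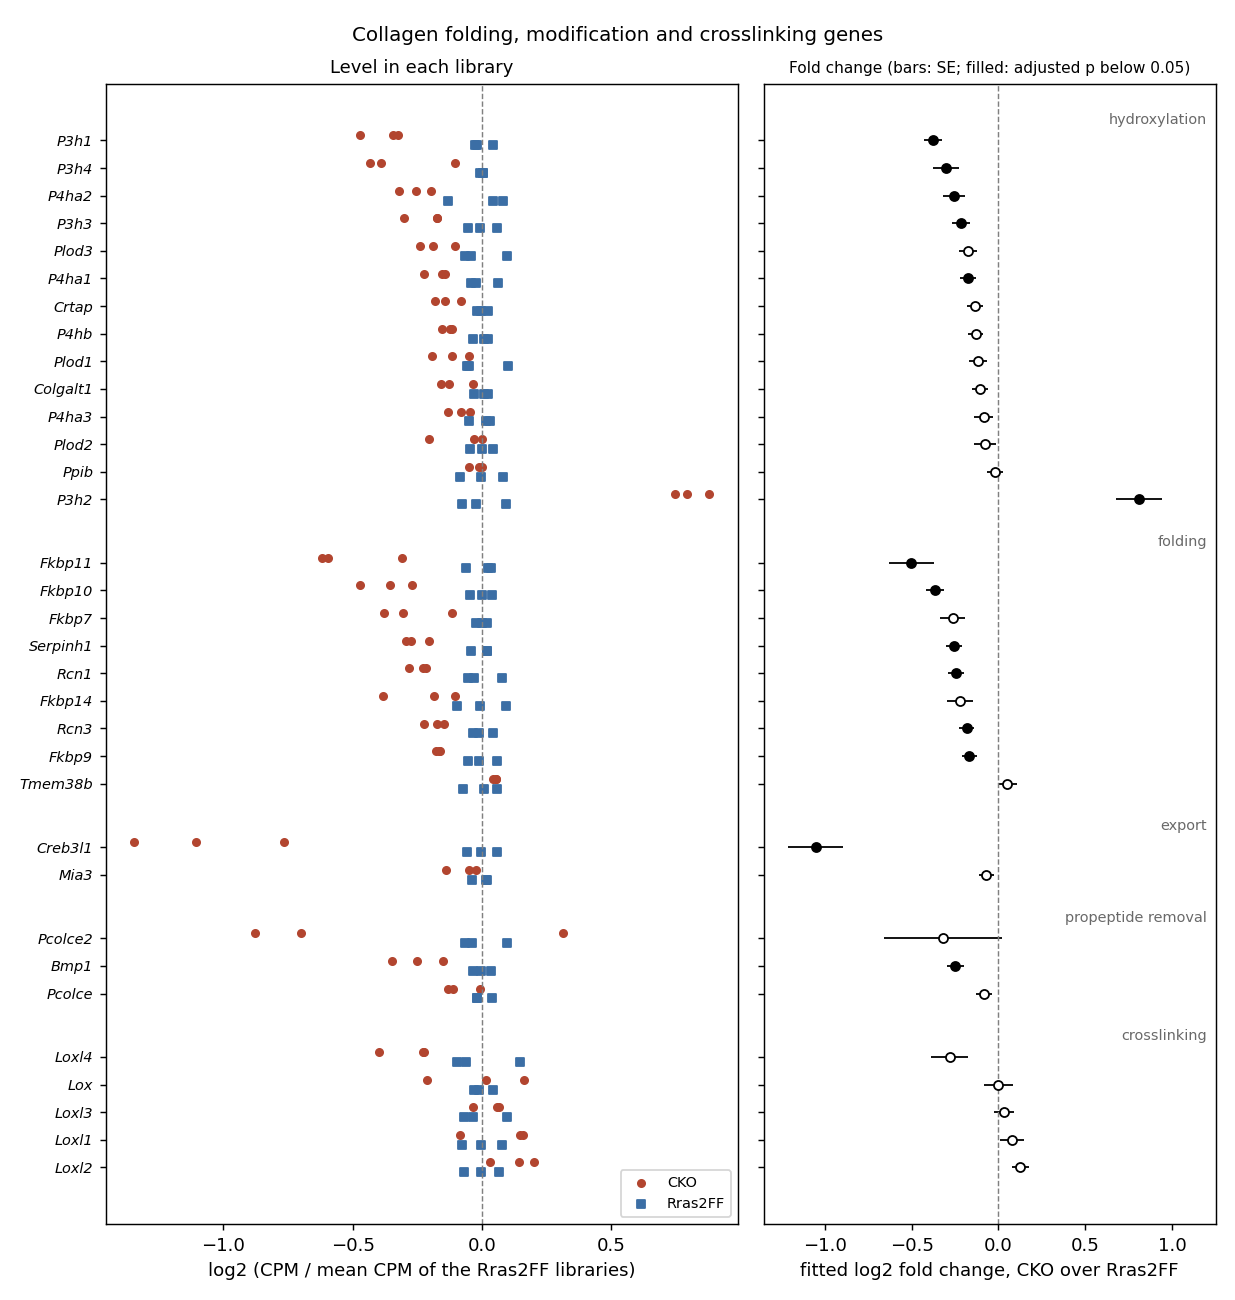
Level of each of the 33 genes in each library, as the log2 of CPM over the mean CPM of the Rras2FF libraries (left), and the fitted log2 fold change, CKO over Rras2FF, with its SE (right), by step. Filled points have an adjusted p below 0.05; 13 of them lie left of 0 and 1, P3h2, lies right of it.

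The number of calls was smaller when any library other than CKO replicate 1 was left out. Without CKO replicate 1, 14 of the genes were called lower, against 4.92% of all genes. Without any other library, between 4 (Rras2FF replicate 2) and 6 were, against 1.255% to 1.69% of all genes. The calls of 5 genes, P3h1, Fkbp10, Serpinh1, Rcn1 and P3h2, passed in all 6 of these fits, and the other 9 were lost in at least 3. By step, hydroxylation had 7 of 14 called lower without CKO replicate 1 and 1 or 2 without any other library. For folding it ranged from 3 (without any of the Rras2FF replicates) to 5 (without CKO replicate 1) of 9. It ranged from 0 to 1 for export and for propeptide removal, and was 0 for crosslinking in each fit, while Loxl2 was called higher without CKO replicate 1.

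**Figure D2:**
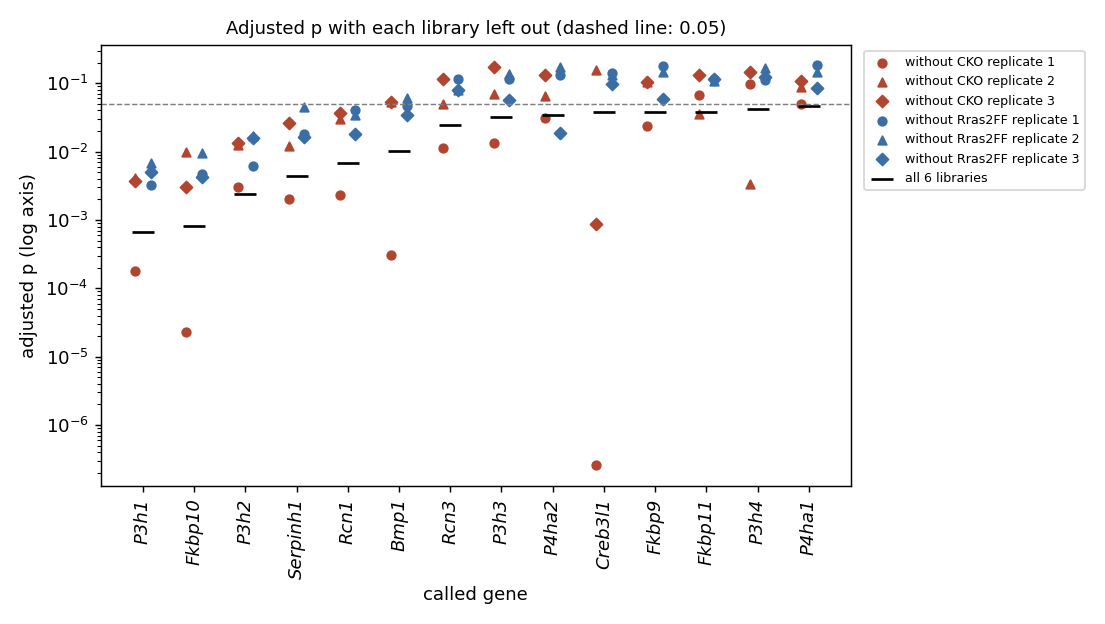
Adjusted p of the 14 called genes with each library left out in turn, on a log axis; the bars give the value with all 6 libraries and the dashed line marks 0.05. The symbols of P3h1, Fkbp10, P3h2, Serpinh1 and Rcn1 all lie below the line, and those of the other 9 genes cross it.

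Hydroxylation held 14 of the genes. Of these, 5 fell (P3h1, P3h4, P4ha2, P3h3 and P4ha1), 1 rose (P3h2) and 8 did not pass. Of all genes, 2.74% were called lower and 2.1% higher. P3h1 encodes the prolyl 3-hydroxylase that, with CRTAP and cyclophilin B, modifies a conserved proline of the type I collagen α1 chain. It lies at chr4:119232915-119248975 on the plus strand (mm10). P3h1 had 80.6, 81.5 and 73.7 CPM in CKO replicates 1, 2 and 3, against 105.2, 100.4 and 100.9 CPM in the Rras2FF replicates. All 3 CKO values lay well under the lowest Rras2FF value. On the log2 scale, the fold change was -0.38 with an SE of 0.0518 (edgeR adjusted p = 0.000656), so that P3h1 fell by 23.1%. The other members of that complex did not pass the test. Crtap, the scaffold of the complex, averaged 121.0 ± 4.31 CPM in CKO cells and 132.8 ± 1.96 CPM in Rras2FF cells (SD, n = 3 each), a log2 fold change of -0.13 with groups that did not overlap (edgeR adjusted p = 0.116; 0.0244 without CKO replicate 1). Ppib, which encodes cyclophilin B, averaged 214.4 ± 3.98 CPM in CKO cells and 217.2 ± 12.4 CPM in Rras2FF cells (SD, n = 3 each), with overlapping groups and a log2 fold change of -0.02 (95% interval -0.12 to 0.08).

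P3h3 and P3h4 belong to a second complex, which in mouse skin binds lysyl hydroxylase 1 and cyclophilin B. P3h3 had 79.1, 79.1 and 72.5 CPM in CKO cells, against 93.0, 88.9 and 86.0 CPM in Rras2FF cells. The log2 fold change was -0.22 with an SE of 0.0534 (edgeR adjusted p = 0.0316), and the groups did not overlap. Its call was lost when any library other than CKO replicate 1 was left out, at adjusted p between 0.0578 and 0.171 (edgeR). P3h4, a non-enzymatic relative, had 55.1, 67.3 and 53.6 CPM in CKO cells, against 71.9, 72.5 and 72.5 CPM in Rras2FF cells. Here the Rras2FF values were almost equal and CKO replicate 2 stood closest to them. The log2 fold change of P3h4 was -0.30 with an SE of 0.0763 (edgeR adjusted p = 0.0420). This call too was lost when any library other than CKO replicate 2 was left out, at adjusted p between 0.0968 and 0.166 (edgeR). P3h4 lies head to head with Fkbp10 on chromosome 11, with 860 bases and 0 protein-coding genes between their starts, and both fell.

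P3h2 was the only one of the 33 genes that rose. Its product 3-hydroxylates prolines, in type IV collagen above all, and the gene lies at chr16:25959288-26105784 on the minus strand. P3h2 had 7.87, 7.61 and 8.34 CPM in CKO cells, against 4.83, 4.46 and 4.30 CPM in Rras2FF cells. The lowest CKO value was well above the highest Rras2FF value. On the log2 scale, the fold change was 0.81 with an SE of 0.132 (edgeR adjusted p = 0.00242), a rise of 75.1%. In the annotation, 1055 of the 3721 exonic bases of P3h2 overlap an antisense gene, and whether the counting used strand is not given in the sources used here. Reads of the pair may therefore not be separated. The same limit holds for exons shared with a gene on the opposite strand in Rcn3 (290 of 1717 bases), Fkbp10 (193 of 2935), Ppib (825 of 3305), Plod3 (529 of 4519), Loxl3 (535 of 4603), Colgalt1 (495 of 4326), Plod2 (346 of 5392), Loxl2 (301 of 5405), Fkbp14 (208 of 4149), Pcolce (112 of 3823) and Lox (30 of 4778).

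Per gene length, the prolyl 3-hydroxylases shifted in make-up. P3h2 took 4.48 ± 0.429% of the summed FPKM (counts scaled by library size and gene length) of P3h1, P3h2 and P3h3 in CKO cells and 2.12 ± 0.0615% in Rras2FF cells (SD, n = 3 each). P3h1 took 45.6 ± 0.342% in CKO cells and 49.5 ± 0.538% in Rras2FF cells. P3h3 took 49.9 ± 0.108% in CKO cells and 48.4 ± 0.489% in Rras2FF cells. For each of the 3 genes the shares of the groups did not overlap. By FPKM, P3h3 was the most abundant of them in every CKO library, and P3h1 in every Rras2FF library. The lead of P3h1 was narrow in Rras2FF replicates 1 (29.6 against 29.3 FPKM) and 2 (29.2 against 28.9 FPKM). By CPM, P3h1 was above P3h3 in every library, and P3h3 itself was lower in CKO cells. With 3 libraries a group, the exact permutation test cannot go below a two-sided p of 0.1, and none is given for shares.

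**Figure D3:**
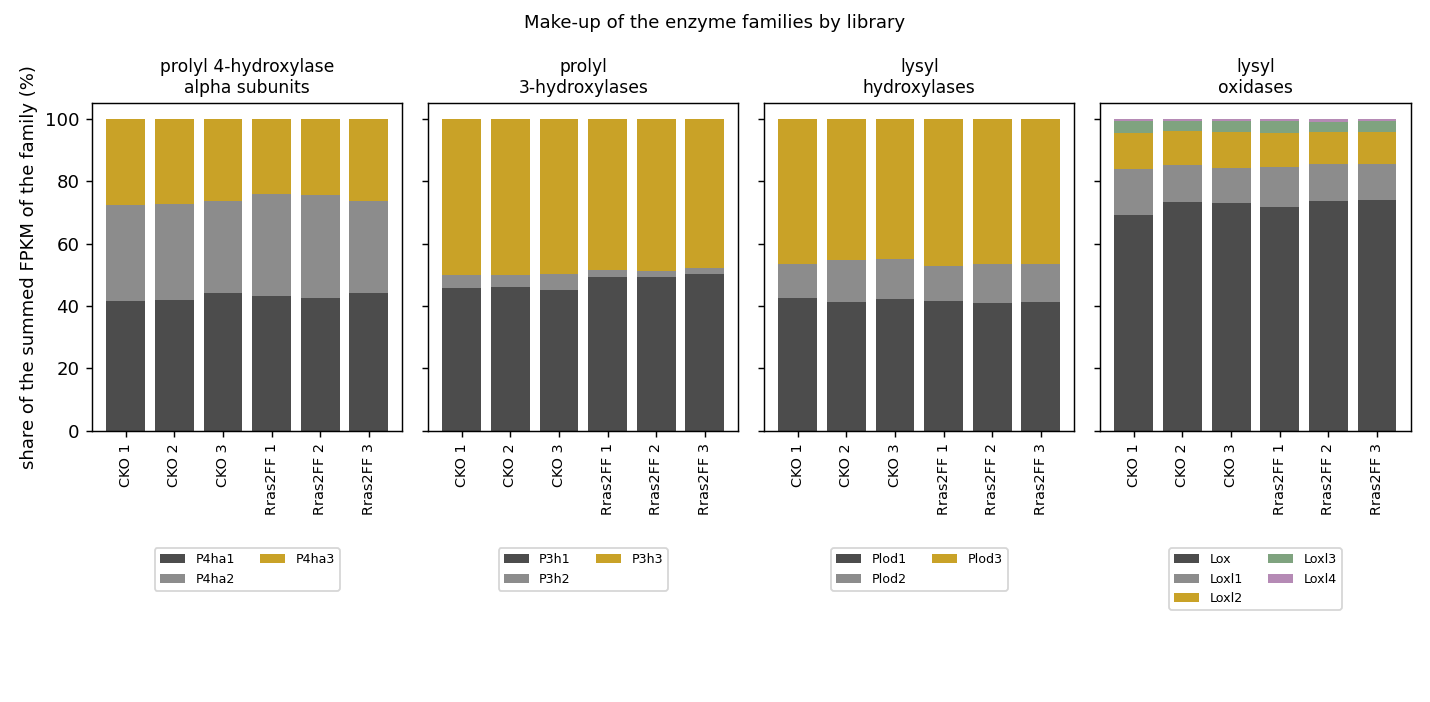
Share of each gene in the summed FPKM of its enzyme family, in percent, in each library. The clearest shift is among the prolyl 3-hydroxylases, where P3h2 takes 4.48% on average in CKO cells and 2.12% in Rras2FF cells; Lox makes up most of the lysyl oxidase transcripts in every library.

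Prolyl 4-hydroxylase joins a catalytic α subunit (P4ha1, P4ha2 or P4ha3) to the β subunit protein disulfide isomerase (P4hb), and its product 4-hydroxyproline keeps the triple helix stable at body temperature. P4ha1 had 117.7, 124.4 and 123.3 CPM in CKO cells, against 143.3, 135.1 and 133.4 CPM in Rras2FF cells. P4ha2 had 54.8, 57.1 and 52.5 CPM in CKO cells, against 69.2, 67.5 and 59.7 CPM in Rras2FF cells. Neither gene's groups overlapped, though Rras2FF replicate 3 of P4ha2 came near the CKO values. P4ha1 had a log2 fold change of -0.17 with an SE of 0.0461 (edgeR adjusted p = 0.0462), and its call was lost when any library other than CKO replicate 1 was left out (0.0852 to 0.187) and with limma-voom (0.0517). For P4ha2 the log2 fold change was -0.26 with an SE of 0.0645 (edgeR adjusted p = 0.0342), and the call was lost without CKO replicate 2 or 3 or Rras2FF replicate 1 or 2 (0.0644 to 0.170). P4hb, the most abundant subunit, averaged 783.8 ± 11.2 CPM in CKO cells and 857.3 ± 18.2 CPM in Rras2FF cells (SD, n = 3 each), with a log2 fold change of -0.13. Its groups did not overlap, but it was not called by edgeR (adjusted p = 0.118), while the authors' deposited table gives an adjusted p of 0.0231. P4ha3 averaged 50.6 ± 1.45 CPM in CKO cells and 53.7 ± 1.62 CPM in Rras2FF cells, with overlapping groups and an edgeR adjusted p of 0.492. In FPKM, P4ha3 made up 27.2 ± 0.622% of the α subunit transcripts in CKO cells and 24.9 ± 1.14% in Rras2FF cells (SD, n = 3 each). The groups only just missed overlapping, at 26.5% in CKO replicate 3 and 26.2% in Rras2FF replicate 3. The gene length implied by the deposited FPKM varied 1.06-fold between libraries for P4ha1 and for P4ha3, so this separation is uncertain.

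The lysyl hydroxylases and the collagen galactosyltransferase were not called. Plod1 hydroxylates lysines of the helix, Plod2 those of the telopeptides that form hydroxylysine crosslinks, and Plod3 also adds the glucose of the collagen disaccharide. Plod3 had 214.1, 195.1 and 201.8 CPM in CKO cells, against 246.5, 223.9 and 220.4 CPM in Rras2FF cells, without overlap. Its log2 fold change was -0.18 with an SE of 0.0518 (edgeR adjusted p = 0.0706; 0.0125 without CKO replicate 1), and the authors' deposited table gives 0.0321. Plod1 and Plod2 had log2 fold changes of -0.12 and -0.08, with overlapping groups (edgeR adjusted p = 0.258 and 0.591). Colgalt1, which adds galactose to hydroxylysine, had 275.4, 258.2 and 253.1 CPM in CKO cells, against 286.9, 276.2 and 283.7 CPM in Rras2FF cells. The CKO values of Colgalt1 were all just below the Rras2FF values, and its log2 fold change was -0.11 (edgeR adjusted p = 0.226; 0.0324 without CKO replicate 1).

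Folding held 9 genes, of which 6 fell, 0 rose and 3 did not pass, against 2.74% of all genes called lower. Serpinh1 encodes HSP47, the collagen-specific chaperone that binds the triple helix in the ER and travels with it to the Golgi. It lies at chr7:99345376-99353239 on the minus strand. Serpinh1 had 914.5, 958.9 and 901.2 CPM in CKO cells, against 1119, 1120 and 1074 CPM in Rras2FF cells. The groups stood clearly apart, with a log2 fold change of -0.26 and an SE of 0.0457 (edgeR adjusted p = 0.00440), so that Serpinh1 fell by 16.3%. Per gene length it was the most abundant of the 33 genes, with a mean of 381.9 FPKM in CKO cells and 460.4 FPKM in Rras2FF cells.

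The FK506-binding proteins of the ER are peptidyl-prolyl isomerases, which speed the turning of proline bonds that limits helix folding. For all 5 measured, every CKO library lay below every Rras2FF library, which held for 11.2% of all genes. Of the 5, 3 (Fkbp10, Fkbp9 and Fkbp11) were called lower, against 2.74% of all genes. Fkbp10, at chr11:100415697-100424824 on the plus strand, encodes FKBP65, which is also needed for lysyl hydroxylation of collagen telopeptides. Fkbp10 had 236.4, 222.9 and 205.6 CPM in CKO cells, against 293.6, 285.7 and 276.5 CPM in Rras2FF cells. It fell by 22.3%, with a log2 fold change of -0.36 and an SE of 0.0516 (edgeR adjusted p = 0.000818). Fkbp9 had 313.9, 316.9 and 317.7 CPM in CKO cells, against 370.3, 352.7 and 342.8 CPM in Rras2FF cells, a log2 fold change of -0.17 with an SE of 0.0430 (edgeR adjusted p = 0.0375). Its call was lost when any library other than CKO replicate 1 was left out (edgeR adjusted p from 0.0588 to 0.176). Fkbp11 was far scarcer, with 5.73, 7.09 and 5.81 CPM in CKO cells, against 9.0, 8.42 and 8.94 CPM in Rras2FF cells. The log2 fold change of Fkbp11 was -0.50 with an SE of 0.128 (edgeR adjusted p = 0.0377), and its call was lost when any library other than CKO replicate 2 was left out (0.0678 to 0.134). Fkbp7 and Fkbp14 had log2 fold changes of -0.26 and -0.22 (edgeR adjusted p = 0.0523 and 0.132), and only Fkbp7 passed with a library left out (0.0144 without CKO replicate 3). The authors' deposited table gives 0.0268 for Fkbp7.

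The other 3 genes of this step act through ER calcium or cation balance. Rcn1 and Rcn3 encode reticulocalbins, calcium-binding proteins of the secretory pathway, and Tmem38b encodes an ER cation channel. Rcn1, at chr2:105386291-105399319 on the minus strand, had 154.0, 153.0 and 147.3 CPM in CKO cells, against 188.9, 175.5 and 172.7 CPM in Rras2FF cells. It fell by 15.4%, a log2 fold change of -0.24 with an SE of 0.0461 (edgeR adjusted p = 0.00689). Rcn3 had 226.6, 230.7 and 219.1 CPM in CKO cells, against 263.5, 249.8 and 253.7 CPM in Rras2FF cells. Its log2 fold change was -0.18 with an SE of 0.0427 (edgeR adjusted p = 0.0245), and the call was lost when any library other than CKO replicate 1 was left out (0.0504 to 0.117). Tmem38b averaged 65.4 ± 0.309 CPM in CKO cells and 63.1 ± 2.84 CPM in Rras2FF cells (SD, n = 3 each), with overlapping groups and a log2 fold change of 0.05 (95% interval -0.06 to 0.17).

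RefSeq promoter windows of the GRCm38.p6 assembly, 250 bases before to 50 after a start, were used for 21 of the 33 genes. Lox was not among the genes looked at here. The letters CCACG, which form part of the ER stress response element, were looked for on both strands (CGTGG on the other). They occurred in 16 of the 21 genes, against 35.5% of all 27025 genes with a window. Among the genes that fell, 7 of 8 held them, and among those not called, 9 of 13. The whole element, CCAAT and CCACG with 9 bases between, was in 0 of the 21 genes and in 0.137% of all genes. The GC box GGGCGG occurred in 18 of the 21, against 38.2% of all genes, while CCAAT occurred in 9 of 21, against 41.1%. The median GC content was 59.7% in the windows of these genes and 52.7% in all windows. These matches describe the letters of the windows and do not show that a factor binds there. The 250 bases before the start are given below for Serpinh1 (chr7:99353240-99353489, minus strand), P3h1 (chr4:119232665-119232914, plus) and Rcn3 (chr7:45092214-45092463, minus), which fell, and for Ppib (chr9:66059919-66060168, plus), which did not pass the test. They are shown because the same letters stand before the start of genes that were called and of one that was not, with CCACG and CGTGG in capitals. A second window of P3h1 is not shown.
Serpinh1: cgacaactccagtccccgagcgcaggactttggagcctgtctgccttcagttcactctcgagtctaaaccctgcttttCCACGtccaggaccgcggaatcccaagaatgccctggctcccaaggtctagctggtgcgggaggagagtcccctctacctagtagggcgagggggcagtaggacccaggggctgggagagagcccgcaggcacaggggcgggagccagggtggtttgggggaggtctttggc
P3h1: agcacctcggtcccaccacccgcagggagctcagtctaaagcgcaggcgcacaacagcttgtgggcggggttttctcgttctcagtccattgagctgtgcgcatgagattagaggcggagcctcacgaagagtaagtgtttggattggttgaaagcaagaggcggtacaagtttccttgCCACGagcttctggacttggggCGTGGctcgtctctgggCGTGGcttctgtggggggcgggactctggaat
Rcn3: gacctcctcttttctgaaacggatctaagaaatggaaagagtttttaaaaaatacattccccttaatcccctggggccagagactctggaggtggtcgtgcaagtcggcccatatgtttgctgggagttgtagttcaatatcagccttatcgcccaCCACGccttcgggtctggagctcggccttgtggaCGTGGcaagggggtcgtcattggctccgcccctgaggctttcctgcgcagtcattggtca
Ppib: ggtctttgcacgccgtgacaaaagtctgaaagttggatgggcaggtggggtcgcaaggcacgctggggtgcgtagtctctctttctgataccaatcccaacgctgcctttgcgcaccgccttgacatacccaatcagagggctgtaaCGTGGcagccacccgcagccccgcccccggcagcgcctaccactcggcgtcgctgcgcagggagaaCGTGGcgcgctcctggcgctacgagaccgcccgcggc

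Export was represented by Creb3l1 and Mia3. Creb3l1 encodes OASIS, a membrane-bound transcription factor of the ER that is cleaved to enter the nucleus and drives Col1a1 and secretory genes in mouse osteoblasts. It lies at chr2:91982328-92024502 on the minus strand. Creb3l1 had 64.2, 50.7 and 43.0 CPM in CKO cells, against 113.5, 108.9 and 104.8 CPM in Rras2FF cells. This was the largest fall among the 33 genes, and the CKO libraries also differed among themselves, with replicate 1 the highest. The log2 fold change was -1.05 with an SE of 0.160 (edgeR adjusted p = 0.0375), which is 2.07-fold lower. Its call was lost without CKO replicate 2 (0.157) and without Rras2FF replicate 1 (0.140), 2 (0.130) or 3 (0.0969), and the adjusted p was 2.56e-07 without CKO replicate 1 (edgeR). Over these fits the log2 fold change stayed between -1.22 and -0.93. Mia3 encodes TANGO1, which packs procollagen into transport carriers at ER exit sites. Mia3 averaged 163.6 ± 6.65 CPM in CKO cells and 171.7 ± 3.66 CPM in Rras2FF cells (SD, n = 3 each), with overlapping groups and a log2 fold change of -0.07 (95% interval -0.16 to 0.03; edgeR adjusted p = 0.473).

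Propeptide removal held 3 genes, of which 1 fell, against 2.74% of all genes called lower. Bmp1, at chr14:70474558-70520234 on the minus strand, encodes the procollagen C-proteinase, which cuts the C-propeptide and also activates lysyl oxidase. Bmp1 had 243.6, 227.2 and 212.8 CPM in CKO cells, against 277.4, 269.8 and 264.6 CPM in Rras2FF cells. No CKO value reached the lowest Rras2FF value. On the log2 scale, the fold change was -0.25 with an SE of 0.0503 (edgeR adjusted p = 0.0101), and the call was lost without CKO replicate 2 or 3 or Rras2FF replicate 2, at adjusted p between 0.0526 and 0.0618 (edgeR). Pcolce and Pcolce2 encode enhancers of that proteinase. Pcolce averaged 300.8 ± 14.3 CPM in CKO cells and 318.3 ± 7.50 CPM in Rras2FF cells (SD, n = 3 each), with overlapping groups and with a log2 fold change of -0.08 by edgeR (adjusted p = 0.393). Pcolce2 was the scarcest of the 33 genes, at 0.974 ± 0.467 CPM in CKO cells and 1.22 ± 0.0755 CPM in Rras2FF cells (SD, n = 3 each), and its 95% interval, from -1.05 to 0.41 on the log2 scale, covers large changes either way.

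With all 6 libraries the crosslinking enzymes showed no call. Of the 5 lysyl oxidases, 0 passed at an adjusted p below 0.05 with edgeR, DESeq2 or limma-voom. An unadjusted edgeR p below 0.05 was found for 2 (Loxl2 and Loxl4), but the share of all genes at that level was not counted. Lox encodes the main lysyl oxidase, which turns telopeptide lysines into the aldehydes from which crosslinks form. Lox had 1381, 1789 and 1618 CPM in CKO cells, against 1565, 1645 and 1584 CPM in Rras2FF cells. The CKO libraries spanned the Rras2FF range on both sides, and the log2 fold change was -0.0018 (95% interval -0.19 to 0.19; edgeR adjusted p = 0.995). Loxl2, which acts on type IV collagen as well, had 259.3, 291.3 and 279.9 CPM in CKO cells, against 265.4, 253.2 and 241.9 CPM in Rras2FF cells. Its groups overlapped in CKO replicate 1 alone, with a log2 fold change of 0.13 and an SE of 0.0513 (edgeR adjusted p = 0.206; 0.0240 without CKO replicate 1). Loxl4 had 11.2, 11.2 and 9.94 CPM in CKO cells, against 12.2, 14.5 and 12.6 CPM in Rras2FF cells. These groups did not overlap, and the log2 fold change was -0.28 with an SE of 0.105 (edgeR adjusted p = 0.166). Loxl1, an oxidase of elastic fibres, and Loxl3 had log2 fold changes of 0.08 and 0.03, with overlapping groups (edgeR adjusted p = 0.615 and 0.837). By FPKM, Lox made up 71.8 ± 2.35% of the family's transcripts in CKO cells and 73.1 ± 1.23% in Rras2FF cells (SD, n = 3 each).

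The genes spanned more than 3 orders of magnitude per gene length. Of these, 7 had a mean of at least 100 FPKM, and among these Lox stood second, at 305.7 FPKM in CKO cells and 308.9 FPKM in Rras2FF cells. P4hb followed with 248.7 FPKM in CKO cells and 274.3 FPKM in Rras2FF cells. At the low end, Loxl4 had 2.78 FPKM in CKO cells and 3.34 FPKM in Rras2FF cells, and P3h2 had 2.19 FPKM in CKO cells and 1.26 FPKM in Rras2FF cells. The genes that fell ranged from Serpinh1 to Fkbp11, which had 7.66 FPKM in CKO cells and 10.9 FPKM in Rras2FF cells. None of the genes below Fkbp11 in level (Loxl4, P3h2 and Pcolce2) was called lower.

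**Figure D4:**
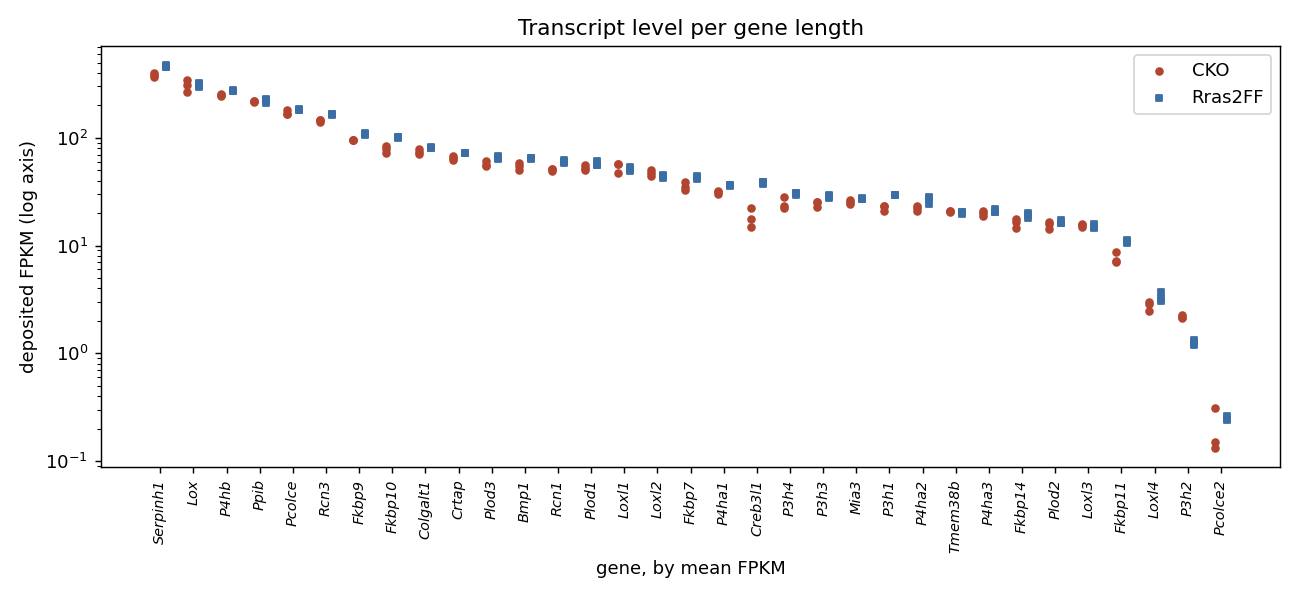
Deposited FPKM of the 33 genes in each library, on a log axis, ordered by the mean. Serpinh1 is highest, at 381.9 FPKM on average in CKO cells and 460.4 FPKM in Rras2FF cells, and Pcolce2 lowest, at 0.198 FPKM in CKO cells and 0.248 FPKM in Rras2FF cells.

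Type I collagen, the main client of these proteins in bone, was itself lower. Col1a1 had 5997, 5477 and 4808 CPM in CKO cells, against 8563, 8070 and 7844 CPM in Rras2FF cells, and Col1a2 had 5278, 5063 and 4504 CPM in CKO cells, against 6966, 6614 and 6571 CPM in Rras2FF cells. Their log2 fold changes were -0.59 with an SE of 0.0733 and -0.44 with an SE of 0.0615 (edgeR adjusted p = 0.000584 and 0.000734). Set against the summed Col1a1 and Col1a2 counts of the same library, 32 of the 33 genes had a higher mean log2 ratio in CKO cells. The groups did not overlap, with CKO above, for 27 of the 33, but this held for 86.5% of the 12786 genes with a count above 0 in all 6 libraries and is no result about these genes. The median difference in log2 ratio was 0.35 over the 33 genes and 0.52 over those 12786. Creb3l1 alone had a lower ratio in CKO cells, with 5.69, 4.81 and 4.61 counts per 1000 collagen counts, against 7.31, 7.41 and 7.27 in Rras2FF cells. Its log2 difference was -0.55 without overlap (exact two-sided permutation p = 0.1, the smallest that 20 splits allow; Benjamini-Hochberg 0.118 over the 33), and 0.649% of the 12786 genes lay below without overlap. Fkbp11 had 0.508, 0.672 and 0.624 counts per 1000 collagen counts in CKO cells, against 0.580, 0.574 and 0.621 in Rras2FF cells, so that its ratio overlapped. P3h2 and Loxl2 had the largest differences in log2 ratio, 1.33 and 0.65.

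**Figure D5:**
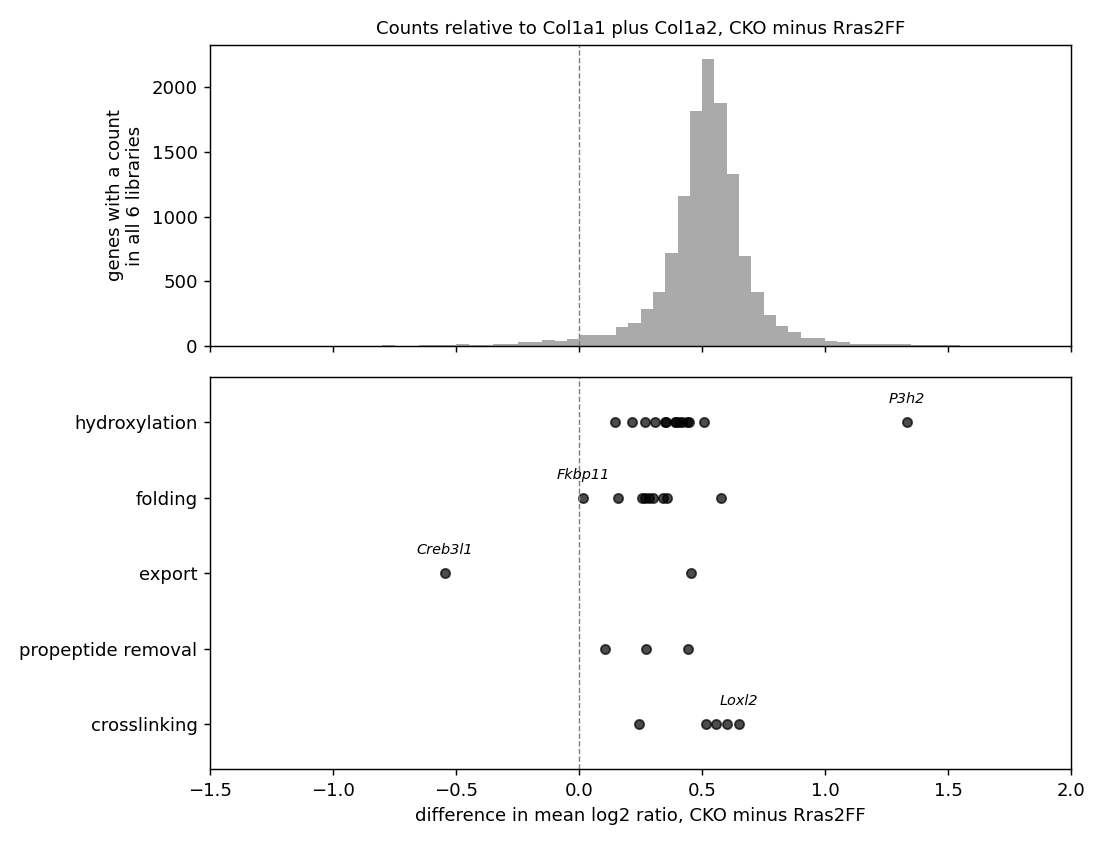
Difference in the mean log2 ratio of each gene's count to the summed Col1a1 and Col1a2 counts, CKO minus Rras2FF, for the genes with a count above 0 in all 6 libraries (top, histogram; 28 of the 12786 lie outside the axis) and for the 33 genes by step (bottom, points). Creb3l1, at -0.55, is the only one of the 33 left of 0, and the median is 0.35 for the 33 and 0.52 for the 12786.

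Other genes of the same pathway were counted from lists chosen by role. Of 29 collagen chain genes in the table, 10 fell and 0 rose, against 2.74% and 2.1% of all genes. Without CKO replicate 1, 15 of the chains were lower, against 4.92% of all genes, and without Rras2FF replicate 2, 6 were, against 1.255%. The median log2 fold change of those chains was -0.27. Of 20 other genes of collagen biosynthesis, 3 fell and 0 rose: Cthrc1, Sparc and the KDEL receptor gene Kdelr3, whose product retrieves ER proteins such as HSP47 from the Golgi; without CKO replicate 1, 5 fell and 1 rose. Kdelr3 had 34.7, 38.3 and 34.9 CPM in CKO cells, against 47.1, 46.8 and 48.2 CPM in Rras2FF cells, with a log2 fold change of -0.40 by edgeR (adjusted p = 0.00189). General ER chaperones, which serve all secreted proteins, gave 0 calls among 22 genes with edgeR, and 2 were called lower without CKO replicate 1. Of the 22, 4 had an unadjusted edgeR p below 0.05, but the share of all genes at that level was not counted. DESeq2 and limma-voom each called 1 lower. The median log2 fold change of the 22 was -0.0095. The most abundant, Calr, averaged 1063 ± 51.7 CPM in CKO cells and 1034 ± 80.9 CPM in Rras2FF cells (SD, n = 3 each). Of 22 genes of COPII vesicles and ER export, 3 fell (Lman1, Sec31a and Sec24d, with log2 fold changes of -0.20, -0.22 and -0.18) and 0 rose, and with a library left out between 0 and 3 did, the number being 0 without CKO replicate 3 or Rras2FF replicate 2 and 1 without Rras2FF replicate 1. Among 12 hypoxia-induced genes, to which P4ha1, P4ha2 and Plod2 are often added, 1 fell, Vegfa, by 0.53 on the log2 scale (edgeR adjusted p = 0.000323).

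The cultures held transcripts of several cell types, and some of these differed between the groups. Of all genes, edgeR called 2.74% lower and 2.1% higher, and DESeq2 3.85% and 2.76%. Without CKO replicate 1, edgeR called 4.92% lower and 4.17% higher. Without any other library, the shares were 1.255% to 1.69% lower and 0.834% to 1.263% higher. Marrow stromal markers were all 6 in the table, 4 of them (Cxcl12, Lepr, Kitl and Ebf3) called higher in CKO cells. Pdgfra and Pdgfrb were not called, with log2 fold changes of -0.04 and -0.05 and overlapping groups. The summed levels were 5387 to 5753 CPM in CKO libraries and 4074 to 4255 CPM in Rras2FF libraries. Most of each sum was Cxcl12, which averaged 4838 CPM in CKO cells and 3483 CPM in Rras2FF cells. Osteoblast markers were all 7 in the table, with 1 (Runx2) called lower by edgeR and 5 by DESeq2. Every CKO library lay below every Rras2FF library for 6 of the 7, which held for 11.2% of all genes. The median log2 fold change of the 7 was -0.57. Sp7, Alpl, Bglap, Ibsp and Dmp1 had log2 fold changes of -0.70, -0.66, -1.87, -0.43 and -0.57. None of these was called by edgeR (adjusted p from 0.0886 to 0.181). The 7 markers summed to 3434 to 3783 CPM in CKO libraries and 4220 to 4517 CPM in Rras2FF libraries. The edgeR number called lower ranged from 0 without CKO replicate 2 or Rras2FF replicate 3 to 4 without CKO replicate 1. Without CKO replicate 1, 1 osteoblast marker was also called higher. Within the sum Spp1 went the other way, with 1675 CPM in CKO cells and 1491 CPM in Rras2FF cells. Its log2 fold change was 0.17 (edgeR adjusted p = 0.171), with overlapping groups. All 13 macrophage markers were present, 2 called higher and 1 lower. The number called higher was 0 without CKO replicate 2 or 3 or Rras2FF replicate 2, and 3 without CKO replicate 1. The macrophage sums were 25969 to 26749 CPM in CKO libraries and 23903 to 25272 CPM in Rras2FF libraries. Most of each sum was Lyz2, which was not called (edgeR adjusted p = 0.293). It averaged 17134.5 CPM in CKO cells and 15800.7 CPM in Rras2FF cells. Of 12 genes of antibody-secreting cells 10 were in the table and 5 were called higher: Jchain, Igkc, Ighm, Igha and Ighg1. Sdc1, Xbp1, Prdm1, Irf4 and Derl3 were not called and their groups overlapped. Their log2 fold changes ran from -0.49 (Derl3) to 0.07 (Prdm1). The sums over the list were 620.9 to 703.3 CPM in CKO libraries and 484.1 to 519.3 CPM in Rras2FF libraries. Of 6 adipocyte markers, all in the table, 1 (Adipoq) was called higher. The adipocyte sums were 3054 to 3141 CPM in CKO libraries and 2784 to 2914 CPM in Rras2FF libraries. Most of each sum was Lpl, which was not called (edgeR adjusted p = 0.191). It averaged 2718 CPM in CKO cells and 2500 CPM in Rras2FF cells. Pparg, Cebpa, Fabp4 and Plin1 were not called either, with overlapping groups. Of 6 endothelial markers 5 were in the table and 0 were called by edgeR or DESeq2. An unadjusted edgeR p below 0.05 was found for 2, but the share of all genes at that level was not counted. The endothelial sums were 26.6 to 33.5 CPM in CKO libraries and 28.0 to 41.8 CPM in Rras2FF libraries. None of the 47 marker genes in the table was at 0 in any library. The part of these cell types in the lower levels of the collagen-processing genes was not tested.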

How the data were processed

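RNA-seq of 3 CKO and 3 Rras2FF libraries was used, grouped by sample title. The kit was a stranded one for mRNA, per the labels' protocols. Reads were placed on mm10 (submitters' processing notes). How they were aligned and counted, and whether by strand, is not given in the sources used here. Per the file headers, the deposited table gives raw counts, FPKM, a log2 fold change and a p-value with its adjusted p for each gene, as the authors made them. The lowest mean count of a gene in it was 22.3 per library. Of the identifiers, 191 were MSTRG loci without a gene name.

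Counts were tested with edgeR 4.0.16 (R 4.3.3): TMM scaling, filterByExpr, which removed 0 genes, and the robust quasi-likelihood F test, adjusted by the Benjamini-Hochberg method over 12830 genes. The SE is the coefficient over the square root of F, and 95% intervals use the test's degrees of freedom. CPM used the TMM-scaled totals. Shares used deposited FPKM, and ratios used counts with an exact two-sided permutation test over 20 splits. Alternatives were DESeq2 1.42.0, limma-voom (limma 3.58.1), other scalings and filters, the replicate number as a block and each library left out. All pairs of libraries differed by more than sampling noise. Positions came from GENCODE M21 and promoters from RefSeq.

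The genes and lists were chosen with earlier results of these data known. Each member with a row is named, and from each other list up to 3 called genes of smallest p, or the most abundant where none was called. Some that this rule takes are given only as counts.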

Additional observations from a re-analysis of the deposited data

How the results depend on the processing

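The numbers of calls among the 33 genes, 13 lower and 1 higher, were the same with the other scalings (RLE, upper quartile, totals alone, collagen chains left out of the totals), without a filter and with limma-voom, where Fkbp7 passed (adjusted p = 0.0452) and P4ha1 did not (0.0517). DESeq2 gave 16 lower and 1 higher, with Fkbp7, P4hb and Plod3 added. With a mean of at least 10 CPM, 0 were higher, since P3h2 was then not tested; Fkbp11 and Pcolce2 were not tested either, and Fkbp7 passed (edgeR adjusted p = 0.0456). Leaving out 1 library gave 268 to 1166 genes called over the whole table, 4 to 14 of the 33 lower and 1 to 2 higher. The labels do not say whether replicate numbers pair the libraries. Deviations of same-numbered libraries correlated at -0.0420, 0.0633 and -0.146, and those of differently numbered ones at -0.188 to 0.209. With so few libraries, these values cannot decide whether a number marks a shared litter, day or batch. With the replicate block, 669 genes were called, and of the 33 genes 13 were lower and 1 higher, with P4ha1 (edgeR adjusted p = 0.0616) and Fkbp11 (0.0525) lost and Fkbp7 (0.0421) and Plod3 (0.0272) gained. Genes with log2 fold changes near 0 changed sign with a library left out: Lox (log2 fold changes from -0.0918 to 0.0923), Loxl3 (from -0.000904 to 0.0821) and Ppib (from -0.0581 to 0.0217). The median log2 fold change of the 33 genes lay between -0.19 and -0.14 over all settings. The log2 ratio of P3h2 to type I collagen differed by 1.03 with FPKM plus a pseudocount of 1, against 1.33 with counts. Depth limited Pcolce2 most, at about 1 CPM.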
